A study of Arabidopsis thaliana with 12 samples.

Results

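EXLA1 (AT3G45970), EXO (AT4G08950) and ATPMEPCRB (AT4G02330) are 3 cell wall genes of Arabidopsis thaliana, followed here across every group of a leaf salt stress study. They were chosen because salt raised their signal in Col and did so much less in Col(gl). The salt responses of Col and Col(gl), and the difference between them, are therefore given as descriptions without a test. Each gene had 1 probe set listed with it alone (252563_at, 255064_at and 255524_at), so the 3 genes stand for 3 of 22746 probe sets tested, or 3 of 13286 named genes. All 3 probe set names end in the plain _at suffix, which Affymetrix gives to probe sets designed against a single transcript. In the TAIR10.1 annotation EXLA1 and its paralog EXLA3 (AT3G45960) are neighbours on chromosome 3, while EXO and ATPMEPCRB lie apart from each other on chromosome 4.

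The 6 groups were leaves of Ws at 100 mM and at 0 mM NaCl, Col(gl) at 100 mM and at 0 mM, and Col at 100 mM and at 0 mM, with 2 biological replicates each, on 12 arrays. The names Ws and Col commonly stand for Wassilewskija and Columbia, natural accessions, and the labels do not say what sets Col(gl) apart from Col. Plants grew in soil in a growth chamber, and NaCl in the nutrient solution went up in steps of 50 mM every 2 days from day 14 after sowing, while the plants at 0 mM received nutrient solution without salt. Leaves were taken 20 days after sowing, 6 days into the treatment; how many plants made up a sample is not stated.

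The growing plant cell wall is a network of cellulose tied by xyloglucan and embedded in pectin. Expansins loosen it without cutting it, xyloglucan endotransglucosylase/hydrolases (XTH enzymes) cut and rejoin xyloglucan, and pectin methylesterases strip methyl groups from pectin, which changes how stiff the gel is. EXLA1 encodes a member of the expansin-like A branch of the expansin superfamily. EXO (EXORDIUM) encodes a protein of the extracellular space known as a brassinosteroid-induced promoter of leaf cell expansion. ATPMEPCRB, also listed as PME41, encodes a pectin methylesterase.

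All values are log2 signals after robust multi-array averaging (RMA), so a difference of 1 is a doubling. Precision is limited by the number of arrays. Leaf identity was visible in RCA (Rubisco activase) and LHCB4.1 (a light-harvesting protein), whose group means lay between 13.4 and 14.0. Replicate 1 of salted Ws and of salted Col stood apart from the other arrays: the median of 69 plastid-encoded probe sets was 8.73 and 9.48 there, against 10.3 to 11.8 on the other 10, and the 3' minus 5' difference of an actin control was 3.70 and 3.68 against at most 2.69. Leaving out these 2 arrays changed the call or moved the value of some genes named below by over 1.5 times. For part of these the value without them is given too.

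EXLA1 had high signal in every group except the unsalted Ws and Col leaves. It read 9.70 and 10.28 (replicates 1 and 2) in salted Ws, against 5.45 and 5.57 in unsalted Ws. In Col(gl) it read 11.22 and 11.31 with salt, against 11.65 and 11.60 without. Col had 9.72 and 10.19 with salt, against 5.06 and 4.76 without. The salted and unsalted arrays did not overlap in any genotype, but salt stood on the high side in Ws and Col and on the low side in Col(gl). With 2 arrays per group non-overlap is weak evidence, and its share over all probe sets was not counted. The fitted difference in Col(gl), -0.36, had a 95% interval of -0.83 to 0.10, which includes 0. The 4 Col(gl) arrays were above all 8 others. Even the lowest of the 12 values, 4.76, was above the arrays' lower quartiles of 4.19 to 4.42.

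EXO followed the same outline with a larger drop in salted Col(gl). Salted Ws arrays read 9.63 and 10.02, against 7.34 and 7.16 in unsalted Ws. Col(gl) gave 10.92 and 10.78 with salt, against 12.01 and 11.95 without. In Col the readings were 9.76 and 10.61 with salt, against 6.05 and 6.07 without. Again no salted array overlapped the unsalted arrays of its genotype, which is weak evidence with 2 arrays per group. The salted Col replicates had the widest spread of any group for this gene (SD 0.60, n = 2), and replicate 1, with the low plastid-encoded signal, was the lower.

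ATPMEPCRB differed from the other two in that salted Col reached the level of Col(gl). Its salted Ws arrays read 9.33 and 9.50, against 7.02 and 7.01 in unsalted Ws. Col(gl) had 9.44 and 9.54 with salt, against 9.95 and 9.90 without. Salted Col had 10.12 and 9.82, against 5.63 and 5.68 in unsalted Col. Here salted Col and unsalted Col(gl) overlapped at the top, salted Col(gl) and salted Ws overlapped below them, and unsalted Col was again the lowest group.

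**Figure D1:**
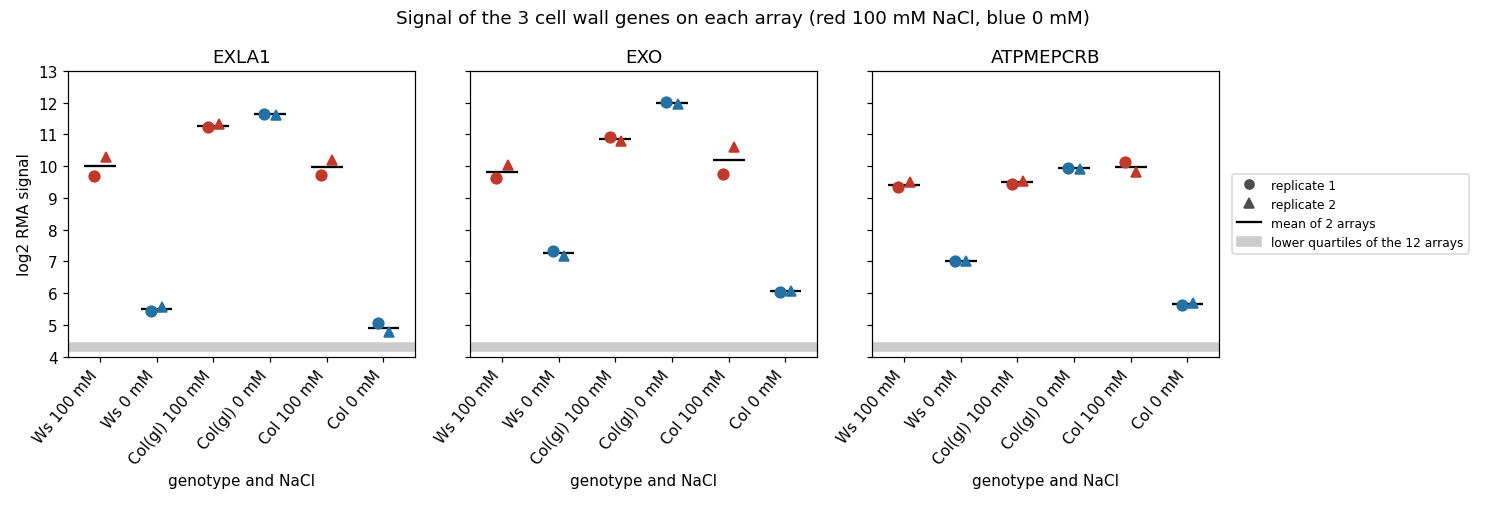
Log2 RMA signal of EXLA1, EXO and ATPMEPCRB on each of the 12 arrays (circles, replicate 1; triangles, replicate 2; black lines, means of 2 arrays; red, 100 mM NaCl; blue, 0 mM; grey band, lower quartiles of the arrays). Unsalted Ws and unsalted Col were the 2 lowest groups for each gene, and unsalted Col(gl) averaged 11.63, 11.98 and 9.92.

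The order of the 6 group means was the same for all 3 genes only at its lower end. Unsalted Ws came just above unsalted Col, which was last, with gaps between these neighbours of 0.60 (EXLA1), 1.19 (EXO) and 1.36 (ATPMEPCRB). At the upper end, salted Ws and salted Col were neighbours that overlapped for EXLA1 (gap 0.03, replicate SD 0.24 pooled over the groups) and for EXO (gap 0.36, pooled SD 0.28). For ATPMEPCRB the overlapping neighbours were salted Col with unsalted Col(gl) (gap 0.05) and salted Col(gl) with salted Ws (gap 0.08), at a pooled SD of 0.11.

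Salt raised all 3 genes in Ws, whose arrays played no part in choosing them. By limma, the log2 difference of EXLA1 was 4.48 ± 0.21 (SE) from 2 salted and 2 unsalted arrays (adjusted p = 3.39e-06), or 22.3-fold. EXO was higher by 2.58 ± 0.24 (adjusted p = 0.000135), or 5.97-fold, and ATPMEPCRB by 2.40 ± 0.12 (adjusted p = 4.24e-06), or 5.27-fold. Of all probe sets, 9.16% were called higher with salt in Ws at an adjusted p under 0.05, and the median over all of them was -0.03. By size the EXLA1 response in Ws was number 12 from the top of the 22746, EXO number 110 and ATPMEPCRB number 124. With replicate 1 of salted Ws and of salted Col left out, the 3 responses were 4.77, 2.78 and 2.48, and each was still called.

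In Col, where salt was part of the choice, the differences were 5.05 ± 0.21 for EXLA1, 4.12 ± 0.24 for EXO and 4.32 ± 0.12 for ATPMEPCRB, or 33.1-fold, 17.4-fold and 19.9-fold. These ranked as numbers 13, 44 and 35. Without replicate 1 of the salted arrays they were 5.28, 4.55 and 4.16. In Col(gl) the salted arrays were lower, by -0.36 ± 0.21 for EXLA1, -1.12 ± 0.24 for EXO and -0.43 ± 0.12 for ATPMEPCRB. The response in Col(gl) minus that in Col was -5.41 ± 0.29, -5.25 ± 0.34 and -4.75 ± 0.17. The response in Ws minus that in Col was -0.57 ± 0.29, -1.55 ± 0.34 and -1.92 ± 0.17, so the Ws responses of EXO and ATPMEPCRB were smaller by more than 1 log2 unit and that of EXLA1 by less.

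The strongest Col responders were set beside this form. At least as large a rise as the smallest of the 3, that of EXO, was seen for 44 of the 3733 probe sets called higher with salt in Col (16.4% of all tested). Among these 44, 30 had a negative response in Col(gl). Unsalted Col(gl) was above unsalted Col for 39 of them and above salted Col for 17. The 44 include the 3 genes themselves. Over all probe sets the median response in Col(gl) was -0.02, already below 0. The median of unsalted Col(gl) was -0.04 against unsalted Col and 0.07 against salted Col. These are counts from the contrasts that chose the genes and are given for context only.

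Col(gl) differed more from Col without salt than with it. At 0 mM, EXLA1 was higher in Col(gl) than in Col by 6.72 ± 0.21, or 105-fold, EXO by 5.92 ± 0.24, or 60.4-fold, and ATPMEPCRB by 4.27 ± 0.12, or 19.3-fold. At 100 mM the difference between Col(gl) and Col was 1.31 ± 0.21, 0.67 ± 0.24 and -0.48 ± 0.12. The arrays at a single salt level also enter the responses that chose the genes, so these differences carry no test. Without the 2 low-plastid arrays, the differences at 100 mM were 1.07, 0.24 and -0.32. Unsalted Col(gl) minus salted Col came to 1.67 ± 0.21 for EXLA1, 1.79 ± 0.24 for EXO and -0.05 ± 0.12 for ATPMEPCRB, or 1.43, 1.37 and 0.11 without those arrays. From bulk leaf RNA, more cells of a type and more RNA per cell cannot be told apart.

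Averaged over both salt levels, a genotype difference is a separate contrast from the salt responses and was tested. It still draws on the Col or Col(gl) arrays that chose the genes, so it is not independent support. Col(gl) was above Col for EXLA1 by 4.01 ± 0.15 (limma, adjusted p = 2.02e-07, 4 arrays per genotype), for EXO by 3.29 ± 0.17 (adjusted p = 9.14e-07) and for ATPMEPCRB by 1.90 ± 0.09 (adjusted p = 4.7e-07). Of all probe sets, 12.3% were called higher in this comparison. The 3 averages joined differences of 6.72, 5.92 and 4.27 at 0 mM with 1.31, 0.67 and -0.48 at 100 mM. With salt, ATPMEPCRB was thus lower in Col(gl) than in Col. Ws was below Col(gl) on the same average, at -3.70 ± 0.15 for EXLA1 (adjusted p = 6.3e-08), -2.88 ± 0.17 for EXO (adjusted p = 7.26e-07) and -1.49 ± 0.09 for ATPMEPCRB (adjusted p = 6e-07), where 15.3% of probe sets were called lower.

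Ws against Col gave small averages. ATPMEPCRB was higher in Ws by 0.40 ± 0.09 (limma, adjusted p = 0.00803), in a comparison with 12.6% of probe sets called higher. That mean joins 1.36 ± 0.12 at 0 mM with -0.56 ± 0.12 at 100 mM, or -0.32 without the 2 low-plastid arrays. At 0 mM and 100 mM the Ws minus Col differences were 0.60 ± 0.21 and 0.03 ± 0.21 for EXLA1. For EXO they were 1.19 ± 0.24 and -0.36 ± 0.24. On average EXLA1 at 0.32 ± 0.15 (adjusted p = 0.168) and EXO at 0.42 ± 0.17 (adjusted p = 0.115) did not pass the test. With both arrays of low plastid-encoded signal left out, the values were 0.34 (adjusted p = 0.03015) and 0.30 (adjusted p = 0.02995) and passed it. Leaving out 1 array did the same for EXLA1 without replicate 1 of salted Ws (0.46, adjusted p = 0.0272) and for EXO without replicate 2 of salted Col (0.63, adjusted p = 0.0046).

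**Figure D2:**
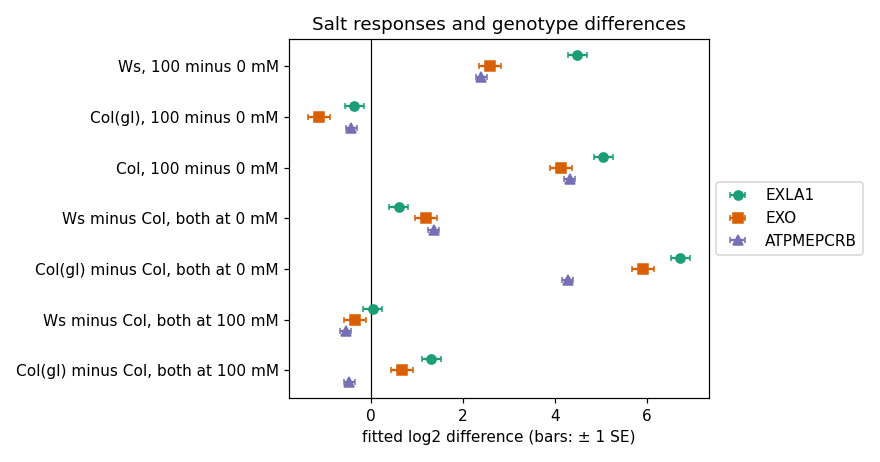
Fitted log2 differences of EXLA1 (circles), EXO (squares) and ATPMEPCRB (triangles) for the salt response in each genotype and for the genotype differences at each salt level (bars, ± 1 SE). Salt responses lie well above 0 in Ws (2.40 to 4.48) and Col (4.12 to 5.05) and below 0 in Col(gl), where the difference from Col at 0 mM was 4.27 to 6.72.

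Plastid-encoded signal was 10.34 and 10.35 on the arrays of unsalted Col(gl), where EXLA1 and EXO were highest, and 11.56 and 11.58 on those of salted Col(gl). Trichome genes differed along with the genotype. TRY and GIS, regulators of trichome formation, averaged 4.80 and 5.45 in salted Col(gl) and 4.86 and 5.52 in unsalted Col(gl), against 6.11 and 6.19 in salted Col and 8.21 and 8.18 in unsalted Col. In Ws, TRY and GIS averaged 7.09 and 7.12 with salt, against 8.49 and 8.24 without. SIM, a cell cycle inhibitor of trichomes, averaged 7.48 in salted Col(gl) and 7.46 in unsalted Col(gl), against 6.48 in salted Col and 6.61 in unsalted Col, and in Ws 6.48 with salt against 6.96 without. Only 3 of 6 trichome markers and 1 of 5 root markers were measured under a name. The root marker, PYK10, averaged 5.17 in salted against 3.58 in unsalted Ws and 8.86 in salted against 3.88 in unsalted Col, but 3.76 and 3.75 in salted and unsalted Col(gl), where the 3 wall genes were high. Epidermis, vascular, flower and seed markers were measured under no name, and FMA, a guard cell gene, averaged 6.75 to 7.18. The part of plastid signal or of trichome or root markers in the result was not tested.

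Across the 12 arrays the 3 genes varied together, as their choice would favour. Pearson's r was 0.982 between EXLA1 and EXO, 0.951 between EXLA1 and ATPMEPCRB, and 0.947 between EXO and ATPMEPCRB. Of 13435 other probe sets with a single named gene, 40 had an r above 0.95 with EXLA1, 27 with EXO and 11 with ATPMEPCRB. These arrays share genotype, salt level and scaling, so r is a description.

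The probe set most like EXLA1 was that of AT5G19120, with r = 0.997. It averaged 10.6 in salted and 6.69 in unsalted Ws, 11.5 in salted and 11.6 in unsalted Col(gl), and 10.6 in salted and 6.29 in unsalted Col. AT5G61590 (r = 0.991), AT5G11070 (0.987), AT5G65660 (0.985) and AT4G31000 (0.982) came next. All 5 had positive fitted salt responses in Ws (1.72 to 3.94) and in Col (1.54 to 4.30), and values just under 0 in Col(gl), from -0.22 to -0.01.

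EXO had EXLA1 as its closest match, followed by AT2G34510 (r = 0.978), AT5G19120 (0.971), BGLU16 (AT3G60130, 0.969), a beta-glucosidase, and AT5G61590 (0.969). ATPMEPCRB had matches with lower r, and 4 of the 5 moved less than it did in Ws and in Col. They were AT3G49720 (r = 0.971), AT1G25550 (0.964), AT3G02880 (0.959), MAP1C (AT1G13270, 0.958), a methionine aminopeptidase, and XTH18 (AT4G30280, 0.957). Among these 5, XTH18 had responses of a size near that of ATPMEPCRB, at 3.40 in Ws, -0.37 in Col(gl) and 3.16 in Col, while AT3G49720 had 0.38, -0.17 and 0.64.

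**Figure D3:**
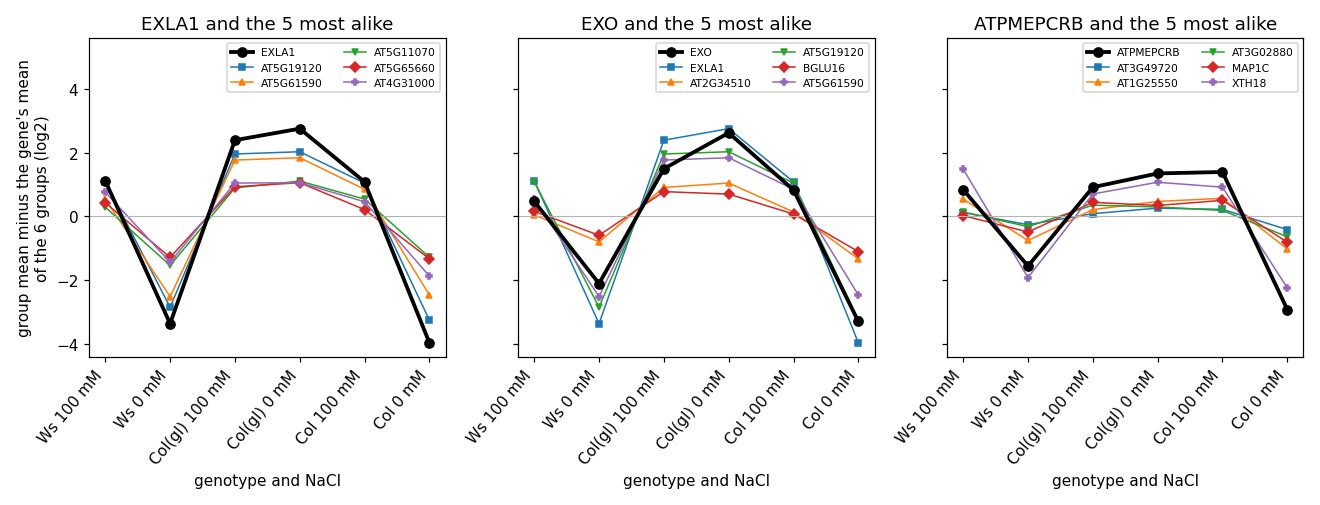
Group means of each gene (thick black line) and of the 5 genes most like it over 12 arrays (thin lines), each minus its own mean of the 6 groups (log2); the lines join the groups only to guide the eye. The genes most like EXLA1 dip in unsalted Ws and unsalted Col and stay high in both Col(gl) groups, and the matches of ATPMEPCRB keep that outline at a smaller size except XTH18.

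Relatives of the 3 genes were followed through lists of wall and brassinosteroid genes, in which 40 further genes were measured under a name. In the expansin-like branch, EXLA2 (AT4G38400) shared the outline of EXLA1 at a lower range. It read 6.85 and 6.27 in salted Ws against 5.07 and 5.22 in unsalted Ws, 7.21 and 7.24 in salted Col(gl) against 8.28 and 8.24 in unsalted Col(gl), and 6.88 and 7.08 in salted Col against 5.04 and 5.31 in unsalted Col. By limma its response was 1.42 ± 0.18 in Ws (adjusted p = 0.000862), -1.04 ± 0.18 in Col(gl) (adjusted p = 0.0293) and 1.80 ± 0.18 in Col (adjusted p = 8.96e-05). The Col(gl) response minus that of Col was -2.84 ± 0.26 (adjusted p = 0.000126). Leaving out any single Col(gl) array, or any unsalted Ws or Col array, ended its Col(gl) call, with an adjusted p of up to 0.235.

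The other expansin-like genes moved little. EXLA3, the neighbour of EXLA1, had group means between 3.92 (unsalted Ws) and 4.72 (salted Col), at or near the lower quartile of the arrays, and averaged 4.08 in salted against 4.71 in unsalted Col(gl). It was called higher in Col (0.75 ± 0.23, limma, adjusted p = 0.0321), a call that ended in 6 of 18 other settings. Those included leaving out either unsalted Col array, replicate 1 of salted Col, or both low-plastid arrays (0.45, adjusted p = 0.16). EXLB1 was called in no genotype, at 0.19 ± 0.14 in Ws, -0.10 ± 0.14 in Col(gl) and 0.38 ± 0.14 in Col. AT4G30380, an expansin-like gene by its description, lay under the quartile throughout. Its call as lower in Col (-0.36 ± 0.12) ended in 12 of 18 other settings, quantile scaling of the arrays among them.

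Expansins proper went the other way in Col. Of 14 measured, 8 were called lower and 0 higher in Col, where 21.1% of all probe sets were called lower and the list's median response was -0.48 against -0.13 over all probe sets. In Ws 2 were lower and 1 higher, against 7.45% and 9.16% of all probe sets, and in Col(gl) 0 of 14 were called, against 0.787% higher and 0.703% lower. Without both low-plastid arrays, salted Ws and salted Col had 1 array each, so counts from that fit are not given. The lack of calls in Col(gl) does not show a lack of response. Each SE there was pooled over all groups, with both low-plastid arrays included. The largest Col(gl) values were -0.86 ± 0.30 for EXPB1 and 0.83 ± 0.45 for EXPA9. EXPA9 read 7.84 and 7.94 in salted against 7.05 and 7.08 in unsalted Col(gl). Its replicates lay further apart in salted Ws (5.79 and 7.19) and salted Col (5.77 and 7.07). EXPB1 was lower in Col, at -1.82 ± 0.30. EXPA4 was lower by -1.21 ± 0.11 in Ws and -1.18 ± 0.11 in Col. EXPA8, at -1.76 ± 0.41 in Ws and -1.71 ± 0.41 in Col, had -1.06 in Ws without both low-plastid arrays. It lost its Ws call without either unsalted Ws array or replicate 1 of salted Ws, and its Col call without replicate 1 of either Col group. The Ws call was also lost in the fit of only the groups compared. EXPA16 was higher in Ws by 1.16 ± 0.30 and lower in Col by -2.03 ± 0.30. Its Ws call ended without either unsalted Ws array or replicate 2 of salted Ws, and in the fit of only the groups compared. The EXPA16 response in Ws minus that in Col, at 3.20 ± 0.43, was called in each setting run. For that difference 4 of the 40 list genes were called higher and 0 lower, against 2.53% and 2.14% of all probe sets. EXPB5 lay near the lower quartile of the arrays, between 3.71 and 4.46. So did EXPA7 (4.22 to 4.87) and EXPA18 (4.16 to 4.86), which were also among those called lower in Col. Calls in Col for EXPA7, EXPB2 and EXPB5 ended in 8 of 19, 4 of 19 and 10 of 18 other settings, single Col arrays left out among them. Quantile scaling of the arrays also ended the Col calls of EXPA7 and EXPB5.

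Of 95 pectin methylesterases and inhibitors listed, only 4 besides ATPMEPCRB were measured under a name. None of the 4 was called higher, 1 was called lower in Ws, 2 in Col and 0 in Col(gl). Over all probe sets 9.16% were higher and 7.45% lower in Ws, 16.4% and 21.1% in Col, and 0.787% and 0.703% in Col(gl). PMEPCRF (AT5G53370) read 8.61 and 8.81 in salted Ws against 9.32 and 9.19 in unsalted Ws, 9.28 and 9.07 in salted Col(gl) against 9.20 and 9.25 in unsalted Col(gl), and 8.48 and 8.56 in salted Col against 9.98 and 9.99 in unsalted Col. By limma it was lower in Col by -1.46 ± 0.11 (adjusted p = 2.07e-05) and in Ws by -0.54 ± 0.11 (adjusted p = 0.0116). The Ws call ended without replicate 1 of either Ws group, and in the fit of only the groups compared. ATPMEPCRD was also lower in Col, by -0.70 ± 0.18. That call was lost without replicate 1 of either Col group, and in the fit of only the groups compared. PME61 and AT4G02300 were called in no genotype. The values of PME61 turned on the 2 low-plastid arrays: -0.19 ± 0.39 in Col became 0.48 (adjusted p = 0.032) without them, and -1.07 ± 0.39 in Ws became -0.62 (adjusted p = 0.0196). Its -0.61 ± 0.39 in Col(gl) was called lower without them (adjusted p = 0.0163). Of 59 pectin synthesis and cleavage genes listed, only GAUT15 and ADPG1 were measured under a name. Their responses were 0.37 ± 0.14 in Ws, -0.10 ± 0.14 in Col(gl) and 0.09 ± 0.14 in Col for GAUT15, and -0.13 ± 0.17, 0.10 ± 0.17 and 0.22 ± 0.17 for ADPG1, none of them called. ADPG1 lay at or under the lower quartile, and its value in Col was 0.49 (adjusted p = 0.0247) without the 2 low-plastid arrays.

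Among XTH enzymes, 10 of 41 listed xyloglucan genes were measured under a name. In Ws 5 of 10 were called higher and 0 lower, against 9.16% and 7.45% of all probe sets. In Col 3 were higher and 2 lower, near the shares of 16.4% and 21.1%, and in Col(gl) 1 was higher and 1 lower, against 0.787% and 0.703%. Counts without both low-plastid arrays are not given here either. XTH18 rose by 3.40 ± 0.18 in Ws and 3.16 ± 0.18 in Col, and XTH16 by 1.97 ± 0.49 in Ws and 3.11 ± 0.49 in Col. The Ws value of XTH16 was 1.06 without the 2 low-plastid arrays, and its salted Ws arrays read 8.53 and 6.70 against 5.71 and 5.58 in unsalted Ws. XTH33 rose by 2.40 ± 0.33 in Ws, a call that ended in the fit of only the groups compared, and had 0.31 ± 0.33 in Col, or 0.46 (adjusted p = 0.0163) without the 2 low-plastid arrays. XTH16 and XTH18 were already high in unsalted Col(gl), at means of 7.40 and 7.79 against 4.93 and 4.48 in unsalted Col. XTH33 and EXGT-A3, not called with salt in Col in the full fit, were also higher in unsalted Col(gl). Their means were 7.56 and 11.57 there, against 5.13 and 10.38 in unsalted Col. XTH32 was lower in unsalted Col(gl), at 9.28 against 10.89. Of the 2 lower in Col, XTH32 had -0.93 ± 0.13. XTH21, at -0.35 ± 0.09, had all arrays between 3.34 and 3.76, under the lower quartiles. It lost its call after quantile scaling, in the fit of only the groups compared, and without either unsalted Col array or replicate 2 of salted Col. XTH32 was also lower in Col(gl), at -0.76 ± 0.13, a call that ended without any single Col(gl), unsalted Ws or unsalted Col array. XTH19 was the one that salt also raised in Col(gl), at 2.66 ± 0.29, beside 4.72 ± 0.29 in Ws and 3.33 ± 0.29 in Col. Leaving out any single Col(gl) array ended that Col(gl) call. The Ws call of XTH16 ended without either unsalted Ws array or replicate 1 of salted Ws, and in the fit of only the groups compared. A further Ws riser, EXGT-A3, lost its call in 10 of 19 other settings. These covered 9 single arrays, among them both unsalted Ws arrays and replicate 2 of salted Ws.

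Of 37 wall sensing genes listed, 3 were measured under a name, and all 3 were higher with salt in Ws and Col and higher in unsalted Col(gl) than in unsalted Col. FER and THE1 encode receptor kinases that monitor the wall, and RALFL33 encodes a peptide of the family that FER binds. The salt response was called higher for 3 of 3 in Ws (9.16% of all probe sets) and in Col (16.4%), and 0 of 3 in Col(gl), where 0.787% were called higher. In Col(gl) the values were -0.50 ± 0.14 for RALFL33, -0.15 ± 0.12 for FER and 0.09 ± 0.19 for THE1, and that of RALFL33 was called lower without both low-plastid arrays (adjusted p = 0.0321). RALFL33 read 10.31 and 10.40 in salted Ws against 9.18 and 9.42 in unsalted Ws, 10.97 and 11.10 in salted Col(gl) against 11.59 and 11.48 in unsalted Col(gl), and 10.32 and 10.63 in salted Col against 9.70 and 9.50 in unsalted Col. Responses in Ws were 1.05 ± 0.14 for RALFL33, 0.88 ± 0.19 for THE1 and 0.56 ± 0.12 for FER. In Col they were 0.88 ± 0.14, 1.06 ± 0.19 and 0.69 ± 0.12. The response in Col(gl) minus that in Col was called lower for all 3 (-1.38 ± 0.20, -0.97 ± 0.27 and -0.84 ± 0.18), a difference with 8.58% of probe sets called lower and 8.77% higher. Unsalted Col(gl) exceeded unsalted Col by 1.94 ± 0.14, 2.33 ± 0.19 and 0.96 ± 0.12, where 10.3% of probe sets were called higher. For THE1 the call of the difference ended in 6 of 19 other settings, with an adjusted p of up to 0.129, among them leaving out any single Col(gl) array or replicate 2 of either Col group. The Ws call of FER ended without either unsalted Ws array or replicate 1 of salted Ws, and that of THE1 without replicate 1 of unsalted Ws. Both Ws calls also ended in the fit of only the groups compared.

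Few brassinosteroid genes could be followed. BIM1, a transcription factor partner in brassinosteroid signalling, fell in Col by 0.66 on the log2 scale (SE 0.12, limma, adjusted p = 0.00252) and was not called in Ws (0.34 ± 0.12) or Col(gl) (0.25 ± 0.12). BRH1, a RING protein named for its response to brassinosteroid, had 0.25 ± 0.26 in Ws, 0.73 ± 0.26 in Col(gl) and -0.36 ± 0.26 in Col. Without the 2 low-plastid arrays its values were -0.19 in Ws, 0.73 in Col(gl) and -0.64 in Col. BRL1, a receptor kinase like BRI1, stayed under the lower quartile. No further member of the EXORDIUM family and 0 of 4 touch genes were measured under a name.

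**Figure D4:**
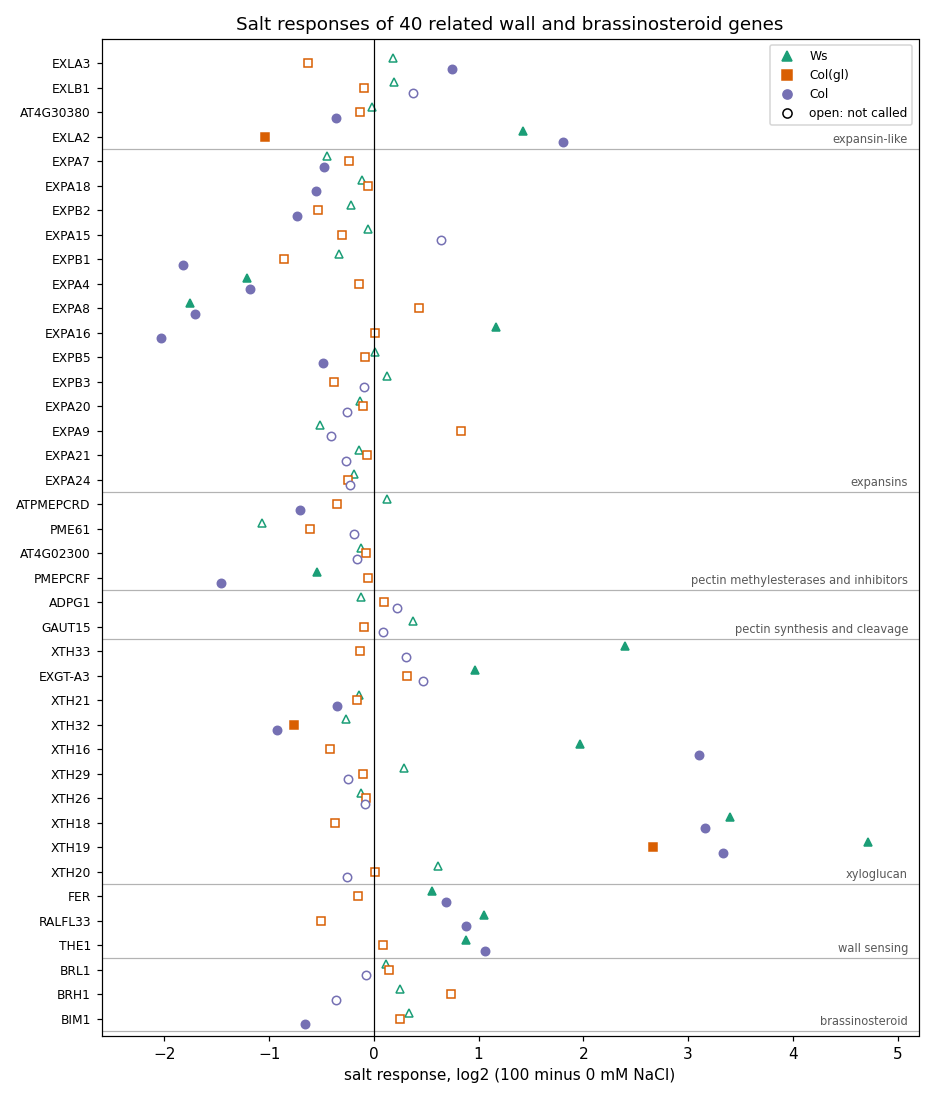
Salt response (log2, 100 minus 0 mM NaCl) of 40 related genes in Ws (triangles), Col(gl) (squares) and Col (circles), grouped by list; filled symbols passed the test at an adjusted p under 0.05 and open ones did not. The filled Col(gl) symbols are those of XTH19 (2.66), EXLA2 (-1.04) and XTH32 (-0.76), while the expansins of Col lie mostly below 0.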

How the data were processed

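The authors deposited log2 signals of 22810 probe sets on 12 Affymetrix arrays, made with GCOS and RMA per the submitters' processing notes, with versions and settings not stated; biotin-labelled cRNA was made from total RNA, per the labels. These log2 values were used without further normalization. Missing values numbered 0, and 64 control probe sets were left out. Of the 22746 tested, 13513 were listed with 1 gene, of which 13436 matched a RefSeq gene, 503 with several and 8730 with none. All probe sets entered a limma fit (limma 3.58.1, R 4.3.3) with 1 coefficient per group over all 12 arrays, then eBayes (6 residual and 3.45 prior degrees of freedom). P-values are two-sided and Benjamini-Hochberg adjusted over all tested probe sets, with calls at an adjusted p under 0.05. The fit was tested on simulated data. Figures used matplotlib 3.10.9 in Python 3.11.15.

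The 3 genes, the gene lists and the tests were chosen with earlier results of these data known. The genes named are the 3 themselves, the 5 probe sets with the highest Pearson's r to each, and up to 4 called members per list and comparison. Where the text names more of the called expansins, XTH genes and wall genes, or genes that were not called, they were chosen after their values were seen. List genes were matched by symbol or synonym, and PMEPCRD and PMEPCRF were added to the pectin methylesterase list once the table's names were seen. Each list gene had 1 probe set. Sequences of the 3 genes are not used here.

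Each result was recomputed with array weights, with a block for replicate number, with limma's trend and robust options, after quantile scaling of the arrays, without the dimmest 25% of probe sets, on the compared groups alone, and without single arrays or both low-plastid arrays.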

Additional observations from a re-analysis of the deposited data

Results flagged for a closer look

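Salted arrays of EXLA1, EXO and ATPMEPCRB all read above the unsalted ones in Col and in Ws and below them in Col(gl). For EXLA1 the 95% interval of the Col(gl) difference, -0.83 to 0.10, includes 0. The response in Col(gl) minus that in Col was -5.41 (EXLA1), -5.25 (EXO) and -4.75 (ATPMEPCRB) on the log2 scale, and the response in Ws minus that in Col(gl) was 4.84, 3.70 and 2.83. These differences were not tested, since the responses of Col and Col(gl) chose the genes.

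Among the related genes, 12 of 40 had a response in Col(gl) that differed from that in Col by limma's test of the difference itself, where 8.77% of all probe sets were called higher and 8.58% lower. It was lower in Col(gl) for XTH16 (-3.53), XTH18 (-3.53), EXLA2 (-2.84), RALFL33 (-1.38), EXLA3 (-1.37), THE1 (-0.97) and FER (-0.84), and higher for EXPA8 (2.14), EXPA16 (2.05), PMEPCRF (1.41), EXPA4 (1.04) and BIM1 (0.91). The calls of EXLA3, EXPA8 and THE1 ended in 5, 9 and 6 other settings, each of them a single array left out. For EXLA3 these were both unsalted Col arrays, replicate 1 of salted Col and replicate 1 of each Col(gl) group. For EXPA8 they were the unsalted Ws and Col arrays, replicate 1 of salted Col and the 4 Col(gl) arrays, and for THE1 replicate 2 of both Col groups and the 4 Col(gl) arrays. The greatest adjusted p over the settings was 0.0852, 0.107 and 0.129.

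The response in Ws was higher than that in Col for EXPA16 (3.20), XTH33 (2.09), BIM1 (1.00) and PMEPCRF (0.92), in a comparison with 2.53% of probe sets called higher and 2.14% lower. The calls of XTH33, BIM1 and PMEPCRF ended in 10, 3 and 4 of 19 other settings, among them the fit of only the groups compared. The single arrays that ended them were replicate 1 of unsalted Ws and of unsalted Col for BIM1, and replicate 2 of unsalted Ws and both unsalted Col arrays for PMEPCRF. For XTH33 they were the unsalted Ws and Col arrays, replicate 1 of salted Col and the 4 Col(gl) arrays.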

How the results depend on the processing

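The salt responses in Ws of all 3 genes, and their Col(gl) minus Col and Ws minus Col(gl) averages, kept direction and call in every setting run. These averages draw on arrays that chose the genes, so their calls are not independent support. With 1 array left out the Ws response was 4.19 to 4.77 for EXLA1, 2.38 to 2.78 for EXO and 2.32 to 2.48 for ATPMEPCRB. The Ws minus Col average was 0.17 to 0.46 for EXLA1 and 0.20 to 0.63 for EXO with 1 array left out, and with both low-plastid arrays left out it was 0.34 and 0.30; some of these passed the threshold that the full fit missed, and the cause was not tested. With 1 array left out the Col response spanned 4.81 to 5.28 (EXLA1), 3.70 to 4.55 (EXO) and 4.16 to 4.47 (ATPMEPCRB), and the Col(gl) minus Col response -5.65 to -5.17, -5.67 to -4.82 and -4.90 to -4.60. With both low-plastid arrays out these were 5.28, 4.55 and 4.16, and -5.65, -5.67 and -4.60.

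The replicate numbers carry no stated pairing. The replicate differences of the salt levels correlated at 0.04 in Ws, -0.35 in Col(gl) and -0.02 in Col over probe sets. With the replicate block no value of the 3 genes changed its call (EXLA1 in Ws 4.48 ± 0.20, adjusted p = 7.412e-06), and the calls over all probe sets were 3840 in Ws, 270 in Col(gl) and 8650 in Col, against 3779, 339 and 8529 without it. An alternative was chosen after seeing the data, with only the Col(gl) arrays and crossed replicate numbers as pairs (a replicate block). It called 4 list genes higher and 9 lower. The share of all probe sets called in it was not counted, so these numbers are not read further.

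Counts over the 40 list genes moved more. Full fits called 10 higher and 3 lower in Ws, 1 and 2 in Col(gl), and 8 and 14 in Col. With 1 array left out they were 5 to 10 and 1 to 5 in Ws, 0 to 2 and 0 to 2 in Col(gl), and 7 to 10 and 7 to 14 in Col. For the Col(gl) minus Col response they were 4 to 8 higher and 5 to 8 lower against 5 and 7, and for the Ws minus Col response 1 to 8 and 0 to 2 against 4 and 0. For the fit of only the groups compared, the share of all probe sets called was not counted, so its list counts are not given. Array weights called 2 and 4 in Col(gl), where calls over all probe sets rose from 339 to 1915. With both low-plastid arrays out, calls over all probe sets in Col(gl) rose as well, and salted Ws and salted Col had 1 array each. List counts from the fit without both arrays are not given.

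The 5 genes most like each of the 3 depended on the measure. With Spearman's rho 1 (EXLA1), 2 (EXO) and 0 (ATPMEPCRB) of them were still among the top 5, and with both low-plastid arrays out 3, 2 and 1. Over all probe sets, calls with 1 array left out ranged from 1567 to 5902 in Ws, 28 to 690 in Col(gl) and 5263 to 9622 in Col; array weights gave 1915 and leaving out both low-plastid arrays 1987 in Col(gl). A group left with 1 array borrowed its spread from the rest. ADPG1, AT4G02300, AT4G30380, BRL1, EXLA3, EXPA21, EXPA24, EXPB5, XTH20, XTH21, XTH26 and XTH29 had means at or under the highest lower quartile of the arrays. Differences there may be understated, and small falls are uncertain as well. The lower quartile itself was 4.22 and 4.19 in salted Col against 4.42 and 4.36 in unsalted Col. Quantile scaling ended the calls of AT4G30380, EXPB5 and XTH21 as lower in Col, and the cause was not tested.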
